A study of Mus musculus with 11 samples.

Results

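Rag1, Rag2 and Dntt encode the parts of the machinery for antigen receptor gene assembly that are restricted to lymphocytes, and their mRNA levels were followed from DN2 to DN3, early stages of thymocyte development. They were chosen by name, found as 3 of the 35975 genes in the files, and all 3 passed the filter on low counts that left 13780 genes for testing. Values of all transcripts of a gene were summed in each library. RNA had been sequenced from mouse thymocytes sorted by flow cytometry at the double-negative stages DN2 and DN3. The cells came from wild-type mice (WT) and from mice lacking the long form of Arpp21 (KO), an RNA-binding protein. There were 3 libraries of DN2 WT, 2 of DN2 KO, 3 of DN3 WT and 3 of DN3 KO. All mice were C57BL/6J by their labels, and neither a treatment nor a transgene or Cre is given for them. KO mice derive from a mouse line in which a pair of guide RNAs cut out exon 5 of Arpp21. The reading frame of the long form is thus disrupted in all cells and not in thymocytes alone. The authors report that the full-length protein was lost and that a short form of Arpp21 was increased in KO thymocytes. Ages were mixed and are not given for single libraries. Nothing in the labels says that replicates of a group came from separate mice, so p-values measure the spread between these libraries, which may be technical.

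Rag1 and Rag2 form the recombinase that cuts DNA at the recombination signals beside V, D and J gene segments. Rag1 binds these signals and holds the catalytic site, and Rag2 is its essential partner and reads a histone methylation mark of active chromatin. Dntt encodes terminal deoxynucleotidyl transferase (TdT), which adds nucleotides without a template to the cut ends before the common repair factors join them. DN2 thymocytes are committing to the T cell lineage, and DN3 thymocytes rearrange the T cell receptor beta locus.

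Rag1 and Rag2 are neighbours on chromosome 2 of GRCm38 and point towards each other. Rag1 (ENSMUSG00000061311) lies on the minus strand at chr2:101638282-101649501, Rag2 on the plus strand at chr2:101624718-101632529, and 5752 bases separate their ends. Dntt lies on the plus strand of chromosome 19, at chr19:41029275-41059525. The 250 bases before the RefSeq start of each gene are printed here because Rag1 and Rag2, but not Dntt, passed the test between stages. They come from RefSeq on GRCm38.p6 and were found for all 3 genes. Capitals mark matches, on either strand, to CANNTG (the E-box bound by E proteins such as those that drive early T cell genes) and to CCAAT, the box bound by NF-Y. The letters TATAAA were searched as well, and none of the 3 windows held them. CAGGTG and the related CAGCTG are special cases of the E-box.
Rag1, chr2:101649533-101649782, minus strand: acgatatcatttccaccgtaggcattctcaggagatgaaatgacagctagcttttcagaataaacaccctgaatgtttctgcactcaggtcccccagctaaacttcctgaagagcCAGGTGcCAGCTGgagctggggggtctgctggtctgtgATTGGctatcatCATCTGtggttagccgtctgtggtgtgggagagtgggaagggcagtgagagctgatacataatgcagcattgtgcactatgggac
Rag2, chr2:101624462-101624711, plus strand: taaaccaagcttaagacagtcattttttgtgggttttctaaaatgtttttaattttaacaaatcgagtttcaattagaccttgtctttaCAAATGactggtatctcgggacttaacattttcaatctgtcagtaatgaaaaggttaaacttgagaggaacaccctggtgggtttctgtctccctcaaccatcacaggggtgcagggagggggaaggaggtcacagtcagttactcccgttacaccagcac
Dntt, chr19:41029025-41029274, plus strand: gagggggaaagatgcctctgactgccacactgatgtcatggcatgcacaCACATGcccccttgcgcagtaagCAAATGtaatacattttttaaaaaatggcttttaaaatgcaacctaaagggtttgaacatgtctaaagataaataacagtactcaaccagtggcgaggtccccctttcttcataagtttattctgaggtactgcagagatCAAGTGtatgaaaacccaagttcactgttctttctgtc
The Rag1 window held 3 CANNTG matches, CAGGTG at position -135, CAGCTG at -128 and CATCTG at -85, counted from the RefSeq start, and 1 CCAAT on the opposite strand at -97. The Rag2 window held 1, CAAATG at -161. The Dntt window held 3, CACATG at -201, CAAATG at -178 and CAAGTG at -38. Of 32851 mouse promoter windows of the same length, 66.2% held a CANNTG, 17.2% a CAGGTG, 13.0% a CAGCTG, 33.8% a CCAAT and 12.4% a TATAAA. Such a match is a description of the letters and not of a bound site.

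The 11 libraries held 14531762 to 63109504 estimated counts. DN2 KO replicate 2 and DN3 KO replicate 3 stood apart: their log2 CPM correlated with the other libraries of their stage at 0.814 to 0.837 and at 0.912 to 0.932, against up to 0.962 in DN2 and 0.979 in DN3 among the rest. Long transcripts were depleted in both. The trend over transcript length at the length of Rag1 was -1.81 and -0.71 on the log2 scale in these libraries and 0.10 to 0.55 in the other 9, whereas at the length of Dntt it was 0.28 and 0.09. Results are therefore also given without them. The targeted gene, Arpp21, had a CPM (counts scaled to library size with the TMM factors of edgeR) of 183, 125 and 136 in DN2 WT, 86.9 and 28.5 in DN2 KO, and, at DN3, 386, 336 and 312 in WT against 335, 221 and 142 in KO. Values summed over a whole gene do not check the loss of 1 exon. By stage markers, 4 of 8 DN3 genes (Ptcra, Notch3, Dtx1 and Cd3e) were called higher in DN3 in both genotypes. Of 8 DN2 genes, Cd44 was called lower in both, but 5 of the 8 had a positive log2 fold change for stage in each genotype. The summed CPM of the DN2 genes was 2433 to 3177 in DN2 WT and 2753 to 3315 in DN3 WT. In KO it was 418 to 2878 in DN2, lowest in replicate 2, and 1374 to 3546 in DN3. Il2ra, which is on both marker lists, was the largest part in WT, with means of 1258 CPM in DN2 and 1302 in DN3. Kit, another DN2 gene, had means of 484 CPM in DN2 WT and 82.6 in DN3 WT. Its log2 fold change for stage was -2.55 in WT and -2.54 in KO (adjusted p = 0.066 and 0.079, edgeR), and it was not called. Of 5 genes of B cells, the other lineage that uses all 3 genes, Pax5 was at 0 in every library and Cd79a at no more than 0.348 CPM, Ms4a1 and Ebf1 reached at most 0.0852 and 1.23 CPM, and Cd79b was at 38.3 to 71.5 CPM.

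Rag1 rose from a low level in DN2 to an abundant mRNA in DN3. In DN2 WT its CPM was 14.5, 8.22 and 6.67, from 334, 181 and 174 counts. In DN3 WT it was 904, 867 and 973, so that the lowest DN3 library exceeded the highest DN2 library 59.6-fold. Rag1 was 93.2-fold higher in DN3 WT, a log2 fold change of 6.54 with a standard error (SE) of 0.56 (adjusted p = 0.000316 in the quasi-likelihood test of edgeR after Benjamini-Hochberg correction). Of 13780 genes tested, 90 had a larger log2 fold change. In KO the CPM was 4.60 and 1.36 in DN2, from 117 and 51 counts, and 413, 335 and 236 in DN3. The log2 fold change in KO was 6.79 (SE 0.68, adjusted p = 0.000618, edgeR). Without DN2 KO replicate 2 and DN3 KO replicate 3 it was 6.34 (adjusted p = 0.00016, edgeR). All DN3 libraries lay above all DN2 libraries in each genotype. Less RNA per cell and fewer cells with the RNA cannot be told apart in such bulk samples.

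Rag2 rose with stage as well, from a higher starting level and by less. Its CPM was 63.1, 36.5 and 47.9 in DN2 WT and 150, 143 and 134 in DN3 WT. This was 2.89-fold higher in DN3, with a log2 fold change of 1.53 and an SE of 0.25 (adjusted p = 0.0068, edgeR). In KO, Rag2 measured 43.8 and 45.3 CPM in DN2 and 182, 169 and 200.3 CPM in DN3, a log2 fold change of 2.05 and an SE of 0.29 (adjusted p = 0.00411, edgeR). Without the same 2 libraries the KO value was 2.00 (adjusted p = 0.00391, edgeR). DN2 and DN3 libraries did not overlap in either genotype.

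Dntt was abundant at both stages. Its CPM was 1597, 1721 and 1739 in DN2 WT and 2487, 2480 and 2539 in DN3 WT. The lowest DN3 library was 1.43-fold above the highest DN2 library, but the log2 fold change of 0.57 (SE 0.21) had an adjusted p of 0.212 by edgeR and was not called. In KO the CPM was 1736 and 1706 in DN2 and 3185, 2708 and 3291 in DN3, a log2 fold change of 0.83 (SE 0.23) with an adjusted p of 0.0829 by edgeR. The call for Dntt in WT depended on the fit. The adjusted p was 0.00162 by DESeq2, 0.00245 by edgeR on the 2 WT groups alone, and 0.0024 by edgeR without DN2 KO replicate 2 and DN3 KO replicate 3. Leaving out DN2 KO replicate 2 alone gave an adjusted p of 0.0411. In KO, edgeR without both libraries gave an adjusted p of 0.0118, without DN2 KO replicate 1 alone 0.0132 in a fit that called 6754 genes, and on the KO groups alone 0.709.

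In the stage comparison, 2 of the 3 genes were thus called in WT and 2 in KO, against 4.08% and 4.32% of all genes tested. The DN2 and DN3 libraries of all 3 did not overlap, as was so for 34.8% of genes in WT and 25.0% in KO. By edgeR on the 2 KO groups alone, 0 of 12786 genes were called, with 1189 at an unadjusted p under 0.05 and 626 called by DESeq2 on the same libraries, and the adjusted p was 0.082 for Rag1 and 0.158 for Rag2.

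**Figure D1:**
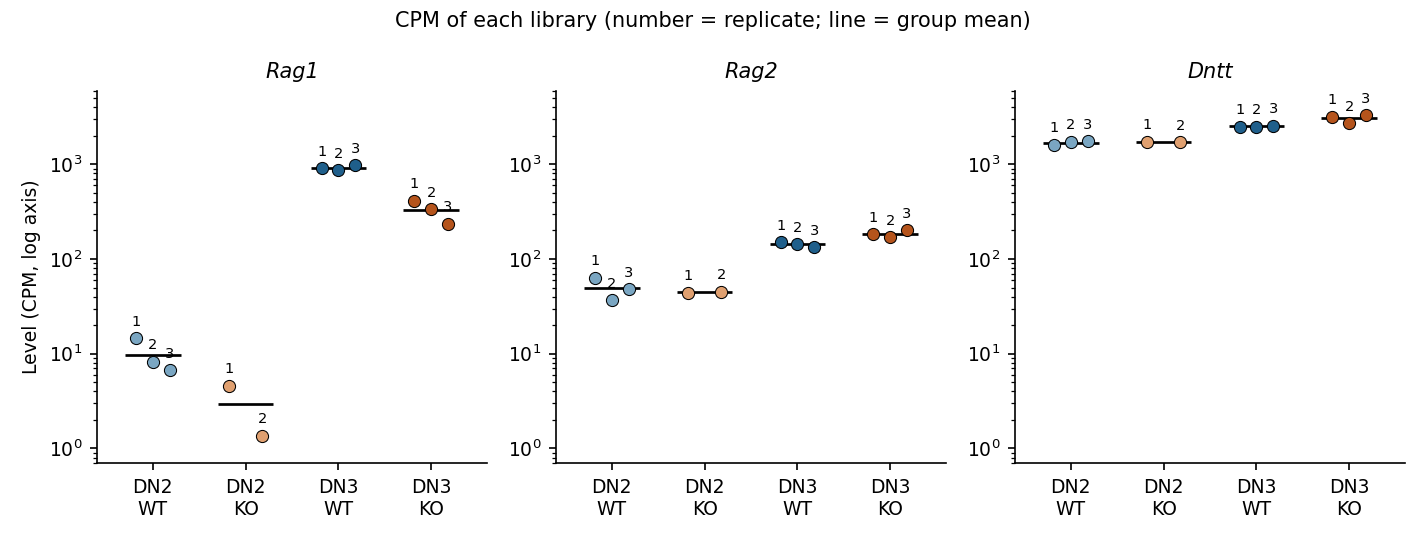
CPM of Rag1, Rag2 and Dntt in each of the 11 libraries on a shared log axis, with points for libraries (numbers are replicates) and lines for group means. Rag1 spans 1.36 to 973 CPM, Rag2 36.5 to 200.3 and Dntt 1597 to 3291, and for each gene every DN3 library lies above every DN2 library.

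Between genotypes the genes went in different directions in DN3, and none was called. Rag1 was lower in KO: the highest KO library, at 413 CPM, was below the lowest WT library, at 867. The mean ± SD was 328 ± 89.0 in KO and 915 ± 53.7 in WT (n = 3 each), a 2.79-fold lower level with a log2 fold change of -1.48 (SE 0.45). Its unadjusted p was 0.00767 by edgeR, and 253 genes had a lower log2 fold change, but the adjusted p was 1. Rag2 had a mean of 184 ± 15.7 CPM in KO and 142 ± 8.21 in WT (n = 3 each), and each KO library was above each WT library. Its log2 fold change was 0.37 (SE 0.24, adjusted p = 1, edgeR). Dntt had 3061 ± 310 CPM in KO and 2502 ± 31.8 in WT (n = 3 each), again without overlap, and a log2 fold change of 0.29 and an SE of 0.20 (adjusted p = 1, edgeR). Per length, as TPM (counts over effective transcript length, scaled within the library), the DN3 ranges of Rag2 overlapped between genotypes, at 84.4 to 127 in KO and 95.9 to 104 in WT. Those of Dntt did so too, at 1612 to 2652 and 1943 to 2144, whereas those of Rag1 did not, at 32.1 to 95.9 and 190 to 230.

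The test called 0 of the 3 genes and 0.00726% of all genes between genotypes in DN3, that is 1 gene, H2-Q6, which was singled out after its value was seen and is uncertain, since its close paralogues can take its reads. Non-overlapping CPM ranges, found for all 3, held for 10.5% of genes. Under 24 other settings the log2 fold change of Rag1 was -1.76 to -1.15, and 2 of them called it, namely DESeq2 on the DN3 libraries alone (adjusted p = 4.18e-05) and limma voom with weights for library quality (adjusted p = 0.000601). With the trend over transcript length removed it was -1.15, and without DN2 KO replicate 2 and DN3 KO replicate 3 it was -1.29, with adjusted p of 0.876 and 0.258 by edgeR.

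In DN2, Rag1 was again lower in KO, with a log2 fold change of -1.73 and an SE of 0.53 (unadjusted p = 0.00845, adjusted p = 0.336, edgeR), and both KO libraries lay below the 3 WT libraries. That value depended on single KO libraries. Without DN2 KO replicate 2 the log2 fold change was -1.07 with an adjusted p of 1, and without DN2 KO replicate 1 it was -2.85 with an adjusted p of 0.00341, a fit that called 6777 genes. Rag2 and Dntt differed by -0.14 (SE 0.27) and 0.03 (SE 0.23) on the log2 scale and their libraries overlapped. In DN2 edgeR called 0.0% of genes between genotypes, with 2020 genes at an unadjusted p under 0.05 and 38 called by DESeq2. Groups did not overlap for 1 of the 3 genes and for 15.8% of all genes.

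The genotype difference itself was not found to differ between stages. The interaction was 0.25 (SE 0.66) for Rag1, 0.51 (SE 0.36) for Rag2 and 0.26 (SE 0.31) for Dntt on the log2 scale, each with an adjusted p of at least 0.964 by edgeR. Across all genes the interaction was called for 0.0% of genes, with 373 genes at an unadjusted p under 0.05 and 10 called by DESeq2. The order of group means in CPM was DN3 WT, DN3 KO, DN2 WT and DN2 KO for Rag1, with no overlap between neighbours. For Rag2 it was DN3 KO, DN3 WT, DN2 WT and DN2 KO, and for Dntt DN3 KO, DN3 WT, DN2 KO and DN2 WT, and in both the DN2 groups overlapped.

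**Figure D2:**
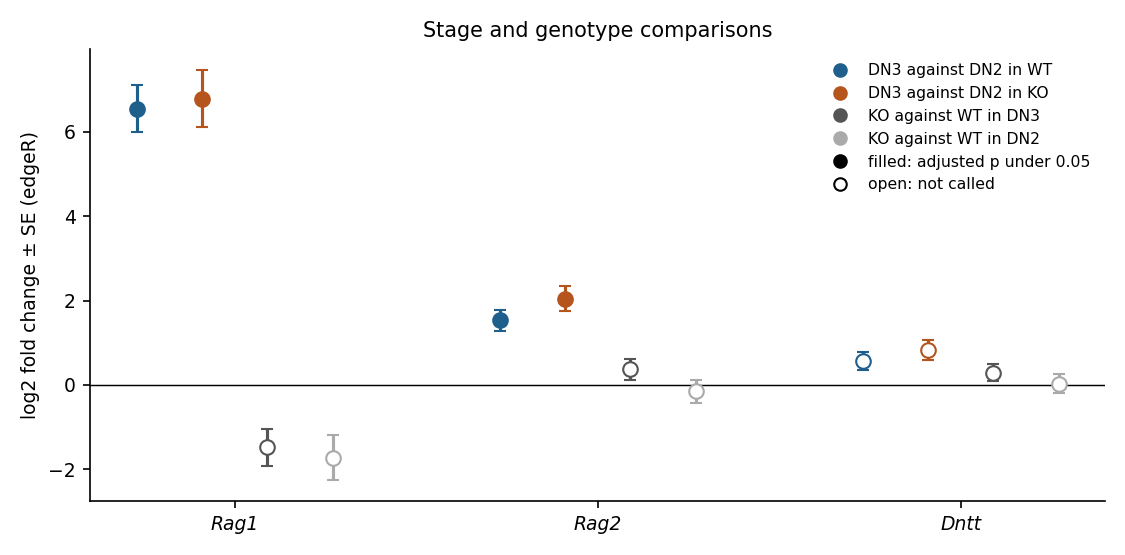
Fitted log2 fold change ± SE from edgeR for each gene in 4 comparisons, with filled points at an adjusted p under 0.05. Rag1 at 6.54 and 6.79 and Rag2 at 1.53 and 2.05 are filled for stage, all genotype points are open, and the Rag1 genotype points lie below 0 at -1.48 and -1.73.

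TPM allow the 3 genes to be compared with each other. In DN2 WT the mean TPM was 2.11 for Rag1, 32.4 for Rag2 and 1263 for Dntt, which placed them at ranks 10238, 4214 and 105 among all genes. In DN3 WT the means were 209, 99.0 and 2036 and the ranks 819, 1739 and 62. In DN3 KO they were 67.6, 109 and 2143, with ranks 2233, 1442 and 65. Rag2 thus exceeded Rag1 in DN2 of both genotypes and in DN3 KO, and Rag1 exceeded Rag2 in DN3 WT. The TPM of DN2 KO replicate 2 was low for all 3 genes, with 470 for Dntt against 1353 in DN2 KO replicate 1, while its CPM of Dntt was 1706 against 1736.

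The ratio of Rag1 to Rag2 was taken within each library, which removes the scaling between libraries but not the trend over transcript length. It was 0.0740, 0.0731 and 0.0458 in DN2 WT and 0.0337 and 0.0092 in DN2 KO. The DN3 values were 1.97, 1.96 and 2.40 in WT, against 0.752, 0.652 and 0.380 in KO. The 4 groups did not overlap. Averaged over genotypes, DN3 was higher than DN2 by 5.04 on the log2 scale, and averaged over stages, KO was lower than WT by a log2 difference of -1.86. Both had p = 0.005 by a two-sided exact permutation test within genotype or within stage, the smallest p that its 200 arrangements allow, and 0.006 after adjustment over the 6 tests of ratios.

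The Rag1 to Dntt ratio changed the same way. There were 388, 749 and 931 Dntt transcripts for each Rag1 transcript in DN2 WT, and 1355 and 4495 in DN2 KO. At DN3 there were 9.84, 10.2 and 9.32 in WT, against 27.7, 28.9 and 50.2 in KO. The log2 difference was 6.11 for stage and -1.87 for genotype, both with p = 0.005 and adjusted p = 0.006 by the exact permutation test. The Rag2 to Dntt ratio rose with stage by 1.07 (exact permutation p = 0.005, adjusted p = 0.006). Between genotypes it differed by -0.01 (exact permutation p = 0.95), and it was 0.0447 to 0.0515 in DN3 WT and 0.0481 to 0.0531 in DN3 KO.

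The genotype difference of both Rag1 ratios became smaller once the depletion of long transcripts was taken into account. Taken as ratios of CPM, it was -1.83 for Rag1 to Rag2 and -1.86 for Rag1 to Dntt. These became -1.21 and -1.08 with each library's trend over transcript length removed from the CPM. The adjusted p was then 0.015 and 0.018 by the exact permutation test. For ratios of TPM without DN2 KO replicate 2 and DN3 KO replicate 3, the genotype difference was -1.24 and -1.30. The adjusted p was 0.03 each by the same test. In DN3 alone the log2 difference was -1.88 and -1.81 as measured (exact permutation p = 0.1, which 3 against 3 libraries cannot go below). With the trend removed, the log2 ratio of Rag1 CPM to Rag2 CPM was 2.33 ± 0.14 in DN3 WT (SD, n = 3). In DN3 KO it was 0.76 ± 0.12 (SD, n = 3), so the KO libraries, replicate 3 included, lay close together. CPM are not divided by transcript length, so the sign of this ratio does not say which gene had more transcripts. The mean log2 ratio of TPM was 1.07 in DN3 WT and -0.81 in DN3 KO.

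**Figure D3:**
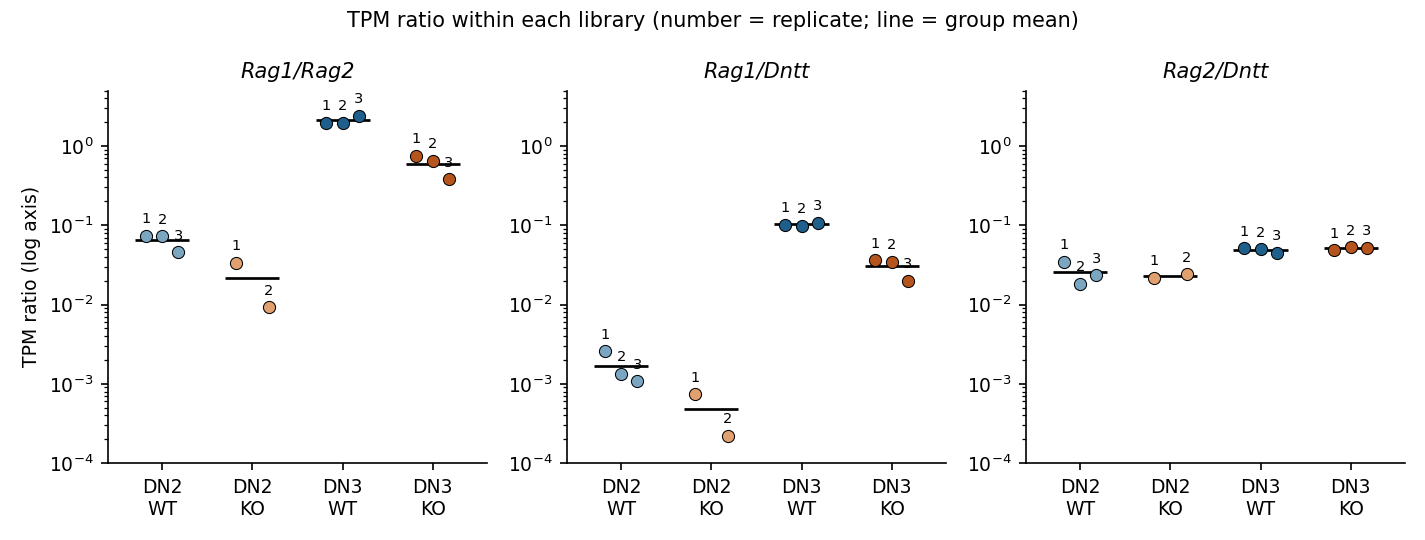
TPM ratios of Rag1 to Rag2, Rag1 to Dntt and Rag2 to Dntt in each library on a shared log axis, with points for libraries and lines for group means. The ratio of Rag1 to Rag2 falls from 1.96 to 2.40 in DN3 WT to 0.380 to 0.752 in DN3 KO, and the DN3 points of the ratio of Rag2 to Dntt overlap.

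Over the 11 libraries, log2 CPM of Rag1 and Rag2 correlated at r = 0.919, Rag1 and Dntt at 0.844, and Rag2 and Dntt at 0.947, as a description of points that share stage and library. Among the 5 genes most like Rag1 across the libraries were Fam234b, Trgv2, Cd3e and Plin3, with Pearson r of 0.983 to 0.991. Trgv2, a T cell receptor gamma V segment, had 11.9 CPM in DN2 WT, 6.21 in DN2 KO, 289 in DN3 WT and 179 in DN3 KO. Cd3e, a chain of the receptor's CD3 complex, had 145, 85.3, 1304 and 1144 CPM in the same order. Those most like Rag2 were Phlda1, Scn2b, Dusp10, Ppt1 and Trav15-1-dv6-1 (r of 0.983 to 0.986). Dusp10, a phosphatase of stress kinases, had 11.7, 10.3, 40.8 and 54.2 CPM. Phlda1, Scn2b and Trav15-1-dv6-1 had means of at most 0.058 CPM in DN2 of both genotypes and no more than 6.35 CPM in DN3. Those most like Dntt were Gpat3, Hhipl2, Slc6a19, 2300002M23Rik and Gm3086 (r of 0.975 to 0.982), which had a mean of 0 in DN2 of both genotypes and no more than 5.07 CPM in DN3. Few of these 5 were kept under another measure: with Spearman's rho 0 for Rag1, 1 for Rag2 and 0 for Dntt, and without DN2 KO replicate 2 and DN3 KO replicate 3 there were 2, 0 and 0.

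Rag1 has 1 annotated transcript, Rag1-201, of 6608 bases with 2 exons. Its coding sequence of 1040 codons lies in exon 2, followed by a 3'UTR of 3391 bases, and all Rag1 counts fall on it. Rag2 has 2, which encode the same 527 codons from their last exon. Rag2-201, of 3424 bases, has 3 exons and a 3'UTR of 1599 bases, and Rag2-202, of 1857 bases, has 2 exons and a 3'UTR of 123 bases. The shorter form made up most of the TPM. Rag2-201 took 22.2%, 24.8% and 26.6% in DN2 WT, and 23.4% and 16.8% in DN2 KO. At DN3 it took 25.9%, 24.8% and 26.6% in WT, against 27.9%, 26.8% and 24.8% in KO. The share was 3.82 percentage points higher in DN3 (exact permutation p = 0.04, adjusted p = 0.16 over 8 tests), with the lowest share in DN2 KO replicate 2. Between genotypes it differed by -1.83 points (exact permutation p = 0.38, adjusted p = 0.434).

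Dntt has 3 annotated transcripts. Dntt-202, of 11 exons and 510 codons, carried 87.2% to 91.5% of the gene's TPM in every library. Dntt-201, of 12 exons and 530 codons, carried 7.53% to 11.1%, and the non-coding Dntt-203 carried 0.831% to 2.15%. The coding forms, which correspond to the short and the long form of TdT, differ by exon 11 of Dntt-201, chr19:41058567-41058626 on the plus strand. Its 60 bases are 20 whole codons, so that skipping it keeps the reading frame. The exon is printed in capitals with 12 coding bases of the neighbouring exons in lower case, and below it the junction of Dntt-202, because this block is the difference between their coding sequences. The annotated transcripts also begin and end at different positions, so that their UTRs differ.
Dntt-201 exon 11: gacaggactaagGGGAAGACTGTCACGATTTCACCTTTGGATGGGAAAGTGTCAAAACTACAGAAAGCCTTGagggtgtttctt
Dntt-202 junction: gacaggactaagagggtgtttctt
The mean share of Dntt-201 was 10.4% in DN2 WT, 8.85% in DN2 KO, 9.43% in DN3 WT and 9.08% in DN3 KO. It differed by -0.36 points between stages and by -0.95 points between genotypes (exact permutation p = 0.625 and p = 0.17, adjusted p = 0.625 and 0.34). None of the 8 tests of transcript shares passed after adjustment.

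**Figure D4:**
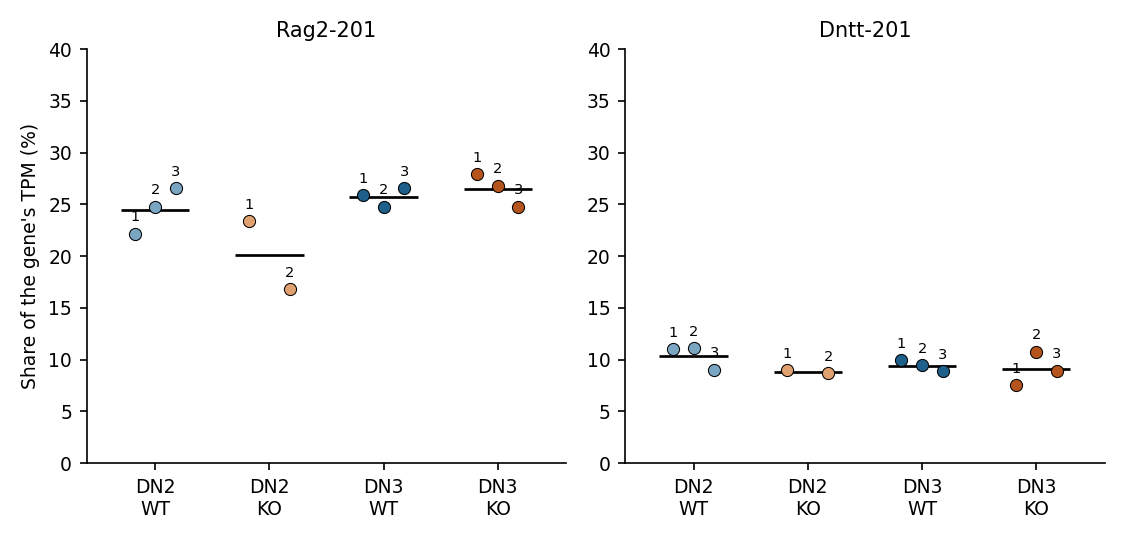
Share of the gene's TPM, in percent, taken by Rag2-201 and by Dntt-201 in each library, with points for libraries and lines for group means. Rag2-201 lies between 16.8% and 27.9% and Dntt-201 between 7.53% and 11.1%, and in DN3 the genotypes overlap for both, whereas the DN2 KO points lie below those of DN2 WT for Dntt-201 and below all DN3 points for Rag2-201.

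A further gene is woven into the Rag locus. B230118H07Rik, named Iftap by RefSeq, runs on the minus strand at chr2:101560781-101649532, from the first exon of Rag1 across Rag2. Of its 12 transcripts, 3 begin with the first exon of Rag1, from 101649422 on, and then splice past the rest of Rag1. They are 404 to 1139 bases long. The question of whether RNA from this shared start followed Rag1 was put after the annotation had been read. In DN2 these transcripts summed to 5.32, 2.34 and 5.66 TPM in WT and 4.58 and 8.18 in KO. In DN3 they reached 54.7, 57.1 and 64.1 TPM in WT and 71.7, 76.8 and 83.3 in KO. They were higher in DN3 by 3.71 on the log2 scale (exact permutation p = 0.005, adjusted p = 0.01 over 6 tests), and the genotype difference was 0.48 (exact permutation p = 0.105, adjusted p = 0.126). Every DN3 KO library thus had more of them than every DN3 WT library, the opposite order to that of Rag1. By CPM, 10.5% of all genes tested did not overlap between genotypes in DN3. The highest value was in DN3 KO replicate 3, in which long transcripts were depleted, and the part of this depletion in the level was not tested.

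There were 3.76, 3.33 and 3.59 Rag1 transcripts for each of them in DN3 WT and 1.34, 0.976 and 0.386 in DN3 KO. In DN2 the ratio was 0.625, 0.684 and 0.246 in WT and 0.218 and 0.0128 in KO. The log2 difference between genotypes was -2.65 (exact permutation p = 0.005, adjusted p = 0.01). Without DN2 KO replicate 2 and DN3 KO replicate 3 it was -1.37 with an exact permutation p of 0.025, the smallest that its 40 arrangements allow, and an adjusted p of 0.05, which did not pass. In DN3 alone it was -2.16 (exact permutation p = 0.1). Rag1 is several times longer than these transcripts, so the trend over transcript length bears on the ratio, and how much of the difference it accounts for was not tested. Libraries were not stranded and reads in the shared exon can be assigned to either gene, as can those of B230118H07Rik-208, which has an exon inside the coding sequence of Rag2. Leaving that transcript out gave a genotype difference of the ratio of -3.06 (exact permutation p = 0.01, adjusted p = 0.015).

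The 3 transcripts were not alike. B230118H07Rik-212, annotated as a retained intron, was at 16.3, 15.1 and 11.2 TPM in DN3 WT, at 1.66, 2.42 and 0 in DN3 KO, and at 0 in all DN2 libraries. B230118H07Rik-209 had 21.6, 23.9 and 41.3 TPM in DN3 WT and 57.6, 51.9 and 59.5 in DN3 KO. These were picked out after their values were seen and were not tested, and transcripts that share most of their sequence can trade reads in the estimate.

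**Figure D5:**
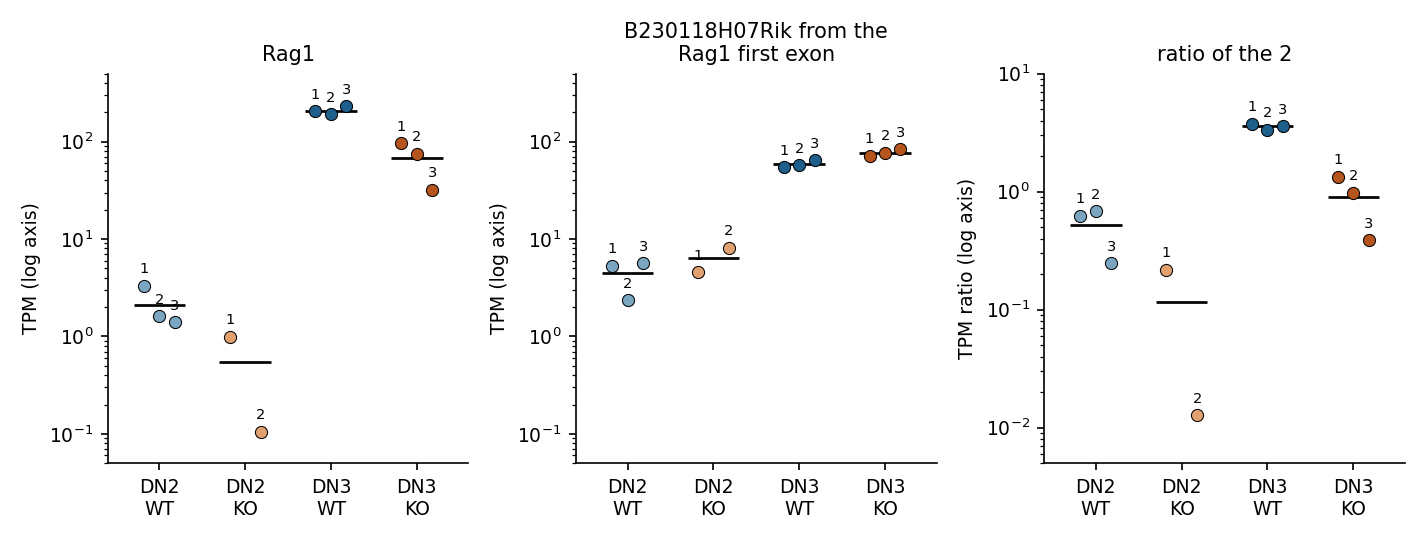
TPM of Rag1, TPM of the B230118H07Rik transcripts that start at the first exon of Rag1, and their ratio, in each library on log axes, with points for libraries and lines for group means. In DN3 Rag1 is lower in KO (32.1 to 95.9 against 190 to 230 TPM) while the transcripts from the shared exon are higher (71.7 to 83.3 against 54.7 to 64.1 TPM).

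Summed over the whole gene, B230118H07Rik was higher in DN3 WT than in DN2 WT, with a log2 fold change of 2.91 and an SE of 0.60 (adjusted p = 0.0244, edgeR), and in KO the value was 2.60 (SE 0.70, adjusted p = 0.0693, edgeR). Between genotypes in DN3 its log2 fold change was 0.95 (SE 0.56, unadjusted p = 0.12, edgeR) and it was not called. Of the other protein-coding genes within 0.2 Mb of the 3 genes, Traf6, Prr5l, Ccnj, Zfp518a, Blnk, Opalin and Tm9sf3 were tested and not called for stage in either genotype. Traf6, a signalling adaptor 28928 bases from Rag1, had 79.0 to 116 CPM in DN2 WT and 111 to 142 CPM in DN3 WT, ranges that overlap. Blnk, a B cell adaptor 34740 bases from Dntt, had a mean of at most 1.59 CPM in any group.

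The ubiquitous factors that join the ends cut by the recombinase were examined as a list of 13 genes, all of them tested. They included the Ku subunits Xrcc5 and Xrcc6, Paxx, and the ligase complex of Lig4, Xrcc4 and Nhej1. The others were the nuclease Dclre1c, the kinases Prkdc and Atm, the polymerases Poll and Polm, and the cofactors Hmgb1 and Hmgb2. The test called 0 of the 13 in either direction in each of the 5 comparisons, with 2 at an unadjusted p under 0.05 for stage in WT, 2 for stage in KO and 0 in the others by edgeR. Their median log2 fold change for stage was 0.28 in WT and 0.09 in KO, against 0.01 and 0.03 over all genes, and for genotype 0.02 in DN3 and 0.08 in DN2, against 0.00 and -0.06. The lowest p-values belonged to Xrcc6, Hmgb1, Hmgb2 and Polm. Xrcc6 had a log2 fold change of 1.14 for stage in KO (unadjusted p = 0.013, adjusted p = 0.133, edgeR). Hmgb1 and Hmgb2, DNA-bending proteins that help the recombinase, had -0.64 and -0.76 for stage in WT (adjusted p = 0.229 and 0.333, edgeR). Polm, a relative of TdT, had 1.70 for stage in WT (adjusted p = 0.433, edgeR), from a low mean of 1.15 CPM in DN2 WT. For stage in KO its value was 0.17 (unadjusted p = 0.86, edgeR).

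Markers of other cell types moved with some of these groups, and their part in the values was not tested. Of 7 myeloid genes, Fcer1g and Tyrobp were called lower in DN3 in both genotypes, and the summed CPM of the list was 114 to 159 in DN2 WT, 134 to 356 in DN2 KO with the highest value in replicate 2, 29.9 to 36.8 in DN3 WT and 34.7 to 47.6 in DN3 KO. For double-positive thymocytes, which also express Rag1 and Rag2, 0 of 6 genes were called, with 3 at an unadjusted p under 0.05 for stage in WT and 6 in KO by edgeR. Their sum was 126 to 151 in DN2 WT, 43.5 to 131 in DN2 KO, 404 to 501 in DN3 WT and 276 to 452 in DN3 KO, so the DN3 genotypes overlapped. Themis made up most of this sum, with a mean of 126 CPM in DN2 WT, 72.6 in DN2 KO, 425 in DN3 WT and 343 in DN3 KO, while Cd4, Cd8a and Cd8b1 had group means of at most 8.79 CPM. Cd69 had a log2 fold change of -1.27 for stage in KO, whereas the other 5 had values above 0. Of 7 genes that mark the step after beta-selection, Cd28 was called higher in DN3 in both genotypes. The log2 fold change for stage was above 0 for 3 and below 0 for 4 of the 7 in WT, and for 4 and 3 in KO. Their summed CPM was 819 to 1191 in DN2 WT, 440 to 910 in DN2 KO, 855 to 942 in DN3 WT and 526 to 1036 in DN3 KO. Of 5 plasmacytoid dendritic cell genes and 7 gamma-delta T cell genes, 4 each were tested and 0 were called, and of 5 B cell genes only Cd79b was tested, and it was not called.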

How the data were processed

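RNA of sorted thymocytes was isolated as total RNA per the labels, and low-input poly-A selected SmartSeq V4 Nextera libraries, which do not keep strand, were sequenced as read pairs. The authors trimmed the reads and pseudo-aligned them to Ensembl transcripts of GRCm38 with kallisto 0.46 (version also in the submitters' processing notes). The deposited estimated counts (expected counts, not normalized) and TPM (counts per effective length, scaled per library, by the authors) are given per transcript. Lengths and effective lengths are deposited as another unit, in bases.

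Of 119414 transcripts, 116728 matched GENCODE M21 by identifier. They carried at least 98.9% of the counts in every library, and the 2686 without a match were not used. Gene sums of the estimated counts were rounded and filtered by filterByExpr (minimum count 10, minimum total 15) to 13780 genes. CPM of the members and Arpp21 use library sums after this filter and CPM of other genes those before it. The test between groups was that of edgeR 4.0.16 (R 4.3.3; TMM, glmQLFit and glmQLFTest, all libraries in 4 groups, two-sided, Benjamini-Hochberg, called at an adjusted p under 0.05). SE are the absolute log2 fold change over the root of F and approximate. Ratios of TPM and transcript shares (transcripts with a mean share of at least 5% in any group) were tested by exact permutation within strata, with Benjamini-Hochberg adjustment within each family. The scripts were tested on simulated data. For edgeR these had less spread than the libraries here, so they do not show how that test behaves on them.

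The named genes are the 3 members, the end-joining list (those called or, with none, the 4 with the lowest p), protein-coding genes overlapping or within 0.2 Mb of a member, the 5 genes with the highest Pearson r with each member, and Arpp21. One of the genes under this rule is not reported here. Marker lists stood for DN2, DN3, post-beta-selection, double-positive, B, plasmacytoid dendritic, myeloid and gamma-delta T cells. Members and lists were chosen with earlier results of these data known. Alternatives were DESeq2 1.42.0, other scalings, filters and length offsets, fits to 2 groups, limma 3.58.1, replicate blocks and left-out libraries. Python 3.11.15, numpy 2.4.6, pandas 2.3.3, scipy 1.17.1 and matplotlib 3.10.9 were used. Deviations of same-numbered libraries from their group means correlated at -0.45 to 0.53. Differently numbered libraries were not compared, so whether replicate numbers pair the libraries was not settled.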

Additional observations from a re-analysis of the deposited data

How the results depend on the processing

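Rag1 for stage in WT stayed past the threshold under all 25 alternatives (log2 fold change 6.12 to 6.94), and in KO under 24 of 25, the exception being edgeR on the 2 KO groups alone (6.77, adjusted p = 0.082). Rag2 for stage lost its call in WT with genotype and number as the replicate block (1.57) and in KO under that block (1.98), edgeR on the KO groups alone (2.03) and voom with quality weights (1.96). The replicate block by number changed none of the members' calls, and whether the numbers pair the libraries is not known. Dntt for stage in WT was called by DESeq2 (0.56), edgeR (0.60) and DESeq2 (0.57) on the WT groups alone, voom (0.57), without DN2 KO replicate 2 (0.57), and without DN2 KO 2 and DN3 KO 3 together (0.59), and in KO by DESeq2 (0.80), with the offset for the length trend (0.96), without DN2 KO replicate 1 (0.85) and without both libraries (0.76). Rag1 for genotype in DN3 was called by DESeq2 on the DN3 groups alone (-1.45) and voom (-1.38). The sign turned, with no call, for Dntt between genotypes in DN2 with the length-trend offset (-0.13) and with limma-trend on log2(TPM + 1) and log2(TPM + 0.1) (-0.66 in both), and for the Rag1 interaction with the length-trend offset (-0.20), limma-trend on log2(TPM + 1) (-0.73) and without both libraries (-0.23). The cause was not tested.

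Genes called for stage in WT numbered 562, and 1192 by DESeq2, 1946 by edgeR and 2774 by DESeq2 on the 2 groups alone, 2326 by voom, 216 with genotype and number as the replicate block, and 2226 without both libraries. In KO they numbered 595, and 1600 by DESeq2, 918 with the length-trend offset, 0 by edgeR on the KO groups alone, 140 by voom, 120 with that replicate block, and 896 without both libraries. Between genotypes in DN3 there was 1, and 16 by DESeq2, 0 by edgeR and 49 by DESeq2 on the 2 groups alone, 2 by limma-trend on log2(TPM + 0.1), 118 by voom, 0 with the replicate block by number, and 5 without both libraries. In DN2 there were 0, and 38 by DESeq2, and for the interaction 0, and 10 by DESeq2.

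With 1 library left out at a time, calls ranged from 243 to 1080 for stage in WT, 281 to 6754 for stage in KO, 0 to 1 for genotype in DN3, 0 to 6777 for genotype in DN2 and 0 to 3664 for the interaction, each upper value but that for DN3 without DN2 KO replicate 1. The log2 fold change of Dntt ranged from 0.53 to 0.59 for stage in WT, 0.77 to 0.91 for stage in KO and -0.0064 to 0.083 for genotype in DN2. That of Rag2 for genotype in DN2 ranged from -0.28 to 0.078. That of Rag1 ranged from -2.85 to -1.07 for genotype in DN2 and from -0.41 to 1.37 for the interaction.

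Each stage or genotype alone has too few libraries for the permutation test to pass. The Rag1 to Rag2 ratio then differed by -1.83 in DN2 and -1.88 in DN3 between genotypes and by 5.06 in WT and 5.02 in KO between stages. For Rag1 to Dntt these were -1.93, -1.81, 6.05 and 6.17, and for Rag2 to Dntt between stages 0.98 in WT and 1.15 in KO. The genotype difference of Rag2 to Dntt turned positive for CPM with the length trend removed (0.13) and for TPM in DN3 alone (0.072). It ranged from -0.12 to 0.11 for TPM with 1 library left out. Without both libraries the genotype difference in the share of Rag2-201 was 0.25 points and that of Rag2-202 -0.25, and with 1 library left out the stage difference of Dntt-201 ranged from -0.78 to 0.029. The transcripts of B230118H07Rik with other starts differed between genotypes by -0.23 on the log2 scale, by 0.85 in DN3 alone, and by -0.69 to 0.24 with 1 library left out. These B230118H07Rik settings were chosen after seeing the data.

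Depth limits Rag1 most in DN2 KO (51 and 117 counts). A count of 0 allows 0.0802 to 0.242 CPM (3 counts, counting error only).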
